A study of Saccharomyces cerevisiae with 12 samples.

Results

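The SUMO pathway genes were followed in RNA of budding yeast with and without the SUMO protease Ulp2, early and late in passaging. They are 10 genes named by their roles and not by any measured value: SMT3, AOS1, UBA2, UBC9, SIZ1, NFI1 (also called SIZ2), MMS21, ULP1, SLX5 and SLX8. All 10 were among the 7126 genes of the deposited table and among the 6572 that passed the filter on low values. The samples are 12 RNA libraries of Saccharomyces cerevisiae, 3 in each of 4 groups: ulp2 null 500G, WT 500G, ulp2 null 50G and WT 50G. Every group descends from the haploid strain MHY1379, in which the chromosomal ULP2 gene is deleted. The ulp2 null cells are described as holding the plasmid YCplac33 without an insert, and the cells called WT as holding YCplac33 with ULP2, so WT here means complemented by a plasmid. The 50G cells had passed about 50 generations, in which the ulp2 null cells lost the covering plasmid and were given the new one. The paper names the WT 50G cells as MHY1379 with its ULP2 plasmid. It lists cells with ULP2 reintroduced apart from the WT line. The 500G cells were passaged on, to about 500, by daily dilution in the rich medium YPD. RNA was taken in mid-exponential growth. The sources do not say whether the 3 replicates of a group were separate lines, so the p-values below measure the spread between these libraries, which may be that of 1 line. By the study's DNA sequencing, the late ulp2 null line carries a missense change in UBC9, so the UBC9 RNA of those cells is RNA of the changed allele. The same sequencing gives a missense change in IFM1 in that line and in BUB1 in the late WT line.

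SUMO, encoded by SMT3, is a small protein that is attached to other proteins, much as ubiquitin is. It is made as a precursor, and the protease Ulp1 cuts it behind a pair of glycines. The Aos1/Uba2 heterodimer (E1) activates it, Ubc9 (E2) conjugates it, and the ligases Siz1, Nfi1 and Mms21 (E3) help to choose targets. Ulp1 at the nuclear pore and Ulp2 inside the nucleus take SUMO off again, and Ulp2 trims chains of SUMO. The Slx5/Slx8 dimer binds proteins that carry SUMO chains and adds ubiquitin to them. In yeast the pathway is needed for chromosome segregation and progress through mitosis, and loss of Ulp2 leaves long SUMO chains on proteins.

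Sequences that bear on the results were read from the R64 RefSeq genome, which has the build named for the files. The end of the SMT3 coding sequence (chrIV:1469646-1469705, plus strand) is shown because Ulp1 acts there, and the capitals mark the 2 glycine codons that become the end of mature SUMO, with 3 codons and a stop behind them.
SMT3 coding end: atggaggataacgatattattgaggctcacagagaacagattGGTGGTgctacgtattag
UBC9 is the only one of the 10 genes with an intron in the annotation. Its 110 bases (chrIV:337525-337634, plus strand) are shown with the 5′ splice site, the branch site and the 3′ splice site in capitals.
UBC9 intron: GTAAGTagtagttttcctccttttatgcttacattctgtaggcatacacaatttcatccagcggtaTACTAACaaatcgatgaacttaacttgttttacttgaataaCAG
AOS1 and UBA2 encode the partners of one enzyme and their RNA ratio moved with passaging, as given further on, so 150 bases of each promoter are shown, from 250 to 101 bases before the start codon. Capitals mark the TATA box letters TATAAA, read on either strand, where they occur. The AOS1 stretch is chrXVI:895711-895860 on the plus strand and the UBA2 stretch is chrIV:1256948-1257097 on the minus strand.
AOS1 promoter: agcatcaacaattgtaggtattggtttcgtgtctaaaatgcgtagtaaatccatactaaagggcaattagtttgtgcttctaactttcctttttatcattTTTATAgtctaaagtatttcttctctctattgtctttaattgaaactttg
UBA2 promoter: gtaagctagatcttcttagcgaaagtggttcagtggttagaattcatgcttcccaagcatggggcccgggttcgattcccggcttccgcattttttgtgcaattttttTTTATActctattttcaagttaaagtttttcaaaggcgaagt
A complete gene for a glycine tRNA (chrIV:1257008-1257079, minus strand) lies inside the UBA2 stretch, and no annotated tRNA gene overlaps the AOS1 stretch. Both stretches hold the letters TATAAA on the strand opposite to the gene. Over the whole 250 bases these letters were found in 6 of the 10 promoters, and in 43.4% of 6001 promoters.

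Other short motifs were searched in the same 250 bases. The stress response element AGGGG, bound by Msn2 and Msn4, was found on either strand in the promoters of SIZ1 and SLX8, so in 2 of 10, against 18.8% of all promoters. The sites are shown with the element in capitals, SIZ1 from chrIV:1289213-1289241 on the plus strand and the SLX8 site nearest the start codon from chrV:396199-396227 on the minus strand.
SIZ1 AGGGG site: tacactaaacggCCCCTagatgtcacctg
SLX8 AGGGG site: gagtcaatataaAGGGGcggccaagtaac
SIZ1 RNA was higher at 500G in both strains, a direction that turned with 1 other scaling between libraries, and SLX8 RNA did not pass the test in any comparison, as given below. The PAC letters GATGAG were in the promoters of UBA2 and SLX5 (17.0% of all promoters), and the Gcn4 letters TGACTCA in that of SLX8 (2.17%). The letters of the proteasome element PACE, GGTGGCAAA (1.13% of all promoters), of the cell cycle element MCB, ACGCGT (2.90%), of RRPE, AAAATTTT (8.65%), and of the Reb1 site, CGGGTAA (7.03%), were in 0 of the 10. In SLX8 the letters of the TATA box and of 1 AGGGG site run into each other. A match of letters is not a bound site.

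RNA levels were deposited as FPKM, fragments scaled to transcript length, so levels can be set side by side between genes. How the libraries were scaled to each other is not given in the sources. In such RNA of whole cultures, fewer cells that express a gene and less of its RNA in each cell cannot be told apart. No counts come with the values, so here the depth behind each value and its counting error are unknown. Summed over all genes, a library had between 1376590 and 1449580 FPKM in ulp2 null 500G libraries, 1365930 and 1539390 in WT 500G libraries, 1083960 and 1198360 in ulp2 null 50G, against 1123500 and 1160550 in WT 50G libraries, while library medians lay between 36.5 and 41.9. ULP2 itself was at 0.0543, 0.412 and 0.995 FPKM in ulp2 null 500G libraries, against 0.0926, 0 and 0.118 in ulp2 null 50G ones, compared with 161.8 to 202.3 in WT 500G and 205.8 to 216.6 in WT 50G libraries. URA3, the marker of both plasmids, was at 35.4 to 48.7 FPKM in all ulp2 null libraries, against 1523 to 2388 in the WT libraries. Its low level goes against the description of the ulp2 null cells as holding a plasmid with this marker, and the cause was not tested. In ulp2 null 50G against WT 50G cells, the median log2 difference was 0.58 over the 96 tested genes of chromosome I and 0.69 over the 518 of chromosome XII, against -0.05 over the other chromosomes. None of the 10 pathway genes lies on chromosome I or XII: 5 lie on IV (SMT3, UBA2, UBC9, SIZ1 and SLX5), 2 on V (MMS21 and SLX8), 2 on XVI (AOS1 and ULP1) and 1 on XV (NFI1).

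The pathway genes spanned a wide range of RNA levels. SMT3 (YDR510W, chromosome IV, 1469400 to 1469705) was far above the rest, with a mean of 651.2 FPKM over the 12 libraries and rank 311 of 7126 genes. UBC9 (YDL064W, chromosome IV, 337487 to 338070) followed with 101.1 FPKM. AOS1 (YPR180W, chromosome XVI, 895961 to 897004) had 71.2 and ULP1 (YPL020C, chromosome XVI, 512313 to 514178) had 68.0. The ubiquitin ligase subunits came next, SLX8 (YER116C, chromosome V, 395348 to 396172) with 59.3 and SLX5 (YDL013W, chromosome IV, 429067 to 430926) with 51.3. UBA2 (YDR390C, chromosome IV, 1254937 to 1256847), the catalytic partner of AOS1, had 41.3 FPKM. The 3 ligase genes were lowest, MMS21 (YEL019C, chromosome V, 120498 to 121301) with 26.9, SIZ1 (YDR409W, chromosome IV, 1289406 to 1292120) with 25.5 and NFI1 (YOR156C, chromosome XV, 628360 to 630540) with 16.1, rank 5432. SMT3 lay above UBC9, UBC9 above AOS1, and SIZ1 above NFI1 with no overlap of libraries in any of the 4 groups. SLX8 and SLX5 overlapped in every group. AOS1 and ULP1, and MMS21 and SIZ1, overlapped in every group but ulp2 null 50G. There AOS1 (47.7 to 51.9 FPKM) lay below ULP1 (52.1 to 60.6), and MMS21 (14.2 to 18.7) below SIZ1 (22.2 to 22.7), the reverse of the order of their means. Where the libraries overlapped, the order within a pair was not separated by their spread.

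**Figure D1:**
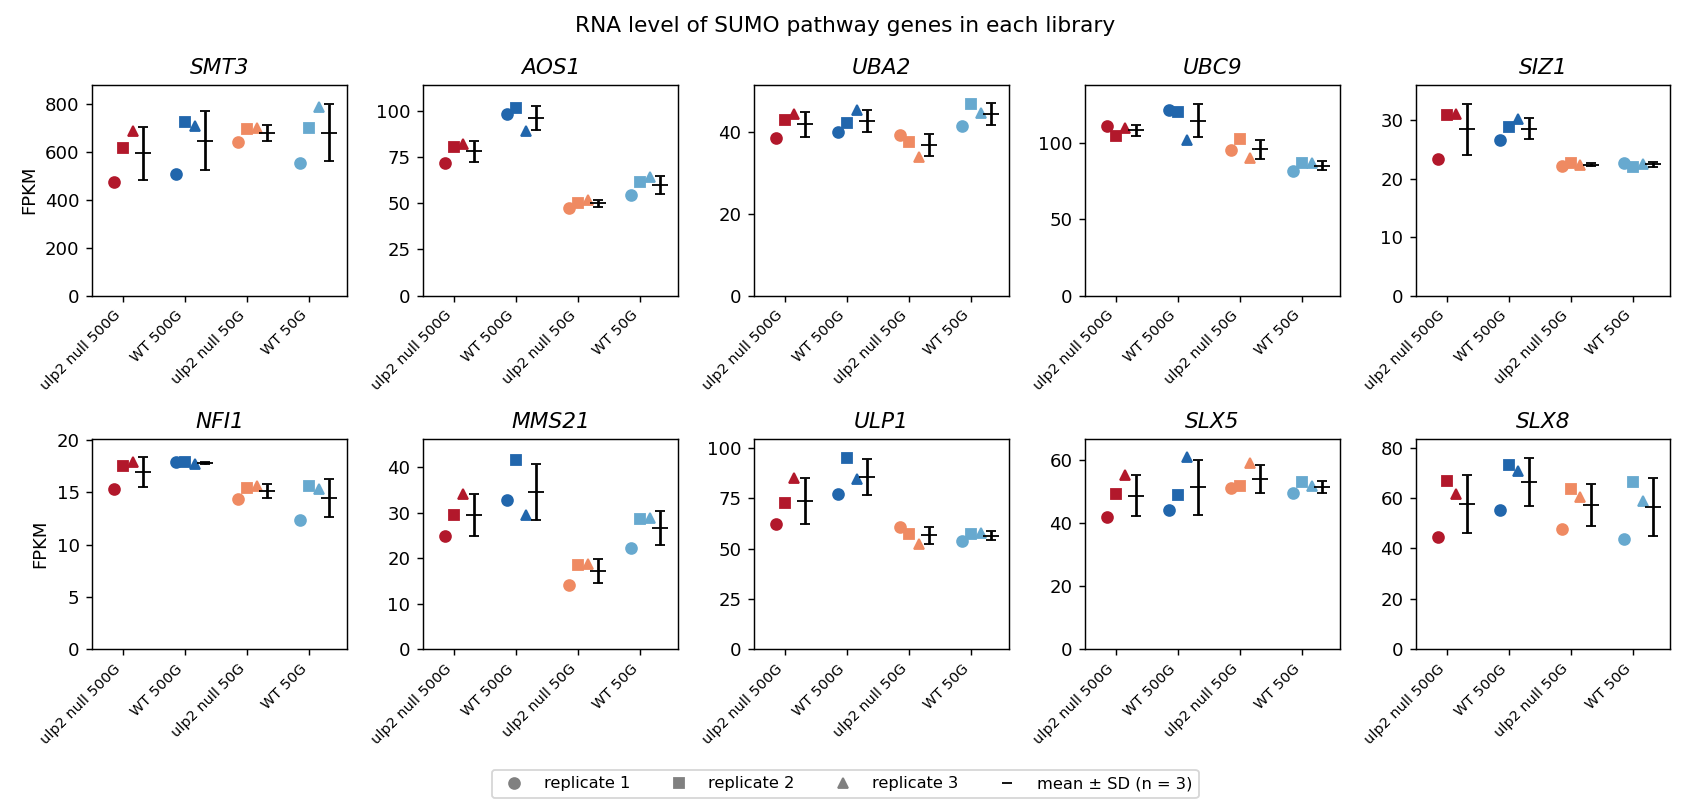
RNA level in FPKM (vertical axes, from 0) of each of the 10 SUMO pathway genes in the 12 libraries, by group. Symbols are replicates, and the bars to the right of each group are the mean and SD of its 3 libraries. AOS1 is higher in both 500G groups than in both 50G groups, MMS21 is lowest in ulp2 null 50G libraries, and the groups of SMT3 overlap.

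SMT3, the modifier, did not pass the test in any comparison. Its FPKM was 475.4, 619.5 and 689.7 in ulp2 null 500G libraries, 506.7, 726.9 and 709.8 in WT 500G libraries, 642.9, 696.9 and 700.5 in ulp2 null 50G, against 554.9, 702.7 and 788.2 in WT 50G. All 4 groups overlapped. Set against WT 50G cells, the log2 difference of ulp2 null 50G was 0.01, with a 95% interval of -0.38 to 0.40 (adjusted p = 0.975, limma), and that of ulp2 null 500G, set against WT 500G, was -0.12, with an interval of -0.51 to 0.27 (adjusted p = 0.703, limma). These intervals are wide, so a change of moderate size in SMT3 would not have been seen. The spread had a pattern: replicate 1 was the lowest library of SMT3 in all 4 groups. The same held for SLX5 and SLX8, so for 3 of the 10 genes, while 15.6% of all tested genes had replicate 1 lowest in all 4 groups and 12.3% had it highest.

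**Figure D2:**
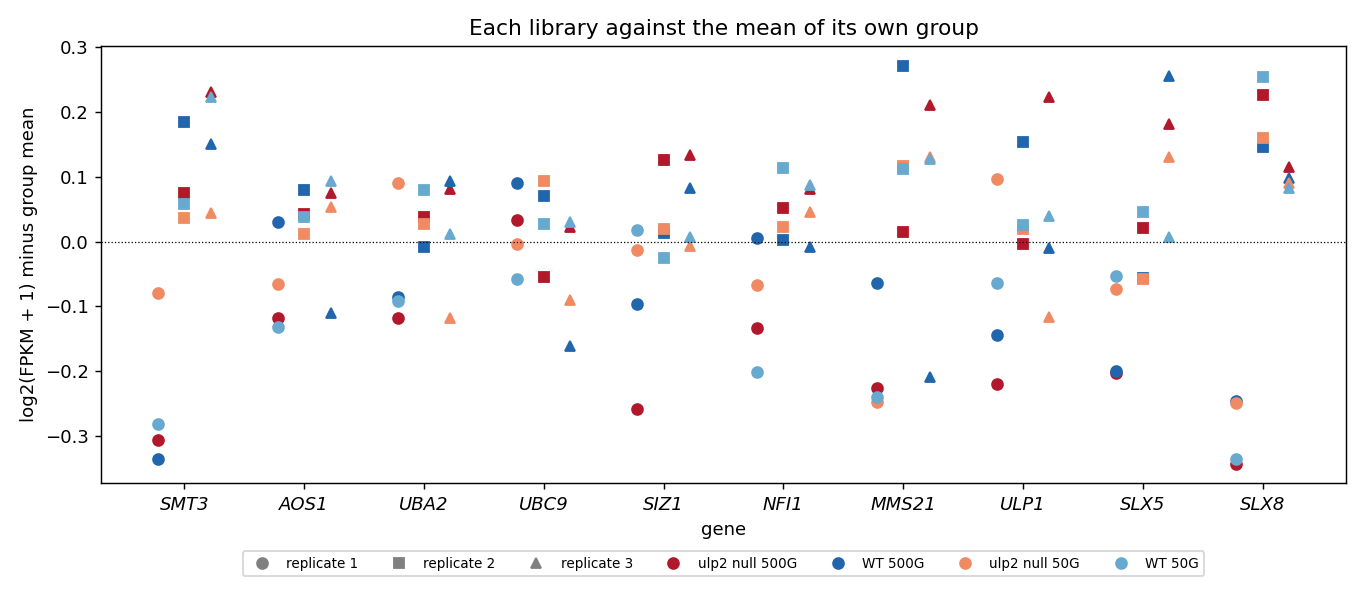
Deviation of each library from the mean of its own group, as log2(FPKM + 1), for the 10 genes (horizontal axis). Shapes are replicate numbers and colours are groups. The circles, replicate 1, lie below 0 in all 4 groups for SMT3, SLX5 and SLX8, as no other shape does for these genes.

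Which pathway genes answered to the loss of Ulp2 was asked first at 50 generations. Of the 10 genes, 3 were lower in ulp2 null 50G than WT 50G cells and 0 were higher (limma, adjusted p under 0.05 over all tested genes), where 18.1% of all tested genes were lower and 18.7% higher (36.9% either way). None of the 10 lies on chromosome I or XII, and over the other chromosomes 19.8% of tested genes were lower and 12.4% higher. The 3 were both E1 subunit genes and the ligase gene MMS21, while the other 3 genes for the attachment of SUMO, UBC9, SIZ1 and NFI1, were not called. The libraries of the groups did not overlap for these 3 genes and, in the other direction, for UBC9, while 26.4% of all tested genes were lower and 26.2% higher without overlap. The median log2 difference was 0.0073 over the 10 genes and -0.02 over all tested genes.

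MMS21, the ligase that acts within the Smc5/6 complex of chromosome maintenance, was at 14.2, 18.5 and 18.7 FPKM in ulp2 null 50G libraries, against 22.2, 28.6 and 28.9 in WT 50G libraries. Every ulp2 null library lay below every WT library. The log2 difference was -0.60 (standard error 0.17, 95% interval -0.97 to -0.24, adjusted p = 0.0148, limma), the furthest from 0 among the 10 genes in this comparison. AOS1 was at 47.7, 50.4 and 51.9 FPKM in ulp2 null 50G libraries, against 54.8, 61.7 and 64.1 in WT 50G libraries, a log2 difference of -0.26 (standard error 0.08, adjusted p = 0.0295, limma). UBA2 was at 39.1, 37.4 and 33.7 FPKM in ulp2 null 50G libraries, against 41.4, 46.8 and 44.6 in WT 50G libraries, with the same log2 difference of -0.26 (standard error 0.08, adjusted p = 0.0295, limma). Both E1 subunit genes were thus lower by a like amount, and their groups were separate. These calls rested on few libraries. Without WT 50G replicate 2 or 3 none of the 3 genes passed the threshold. Without ulp2 null 50G replicate 1, MMS21 (log2 difference -0.48, adjusted p = 0.0579) and AOS1 (-0.23, adjusted p = 0.0896) did not pass. Without ulp2 null 50G replicate 2, AOS1 (-0.27, adjusted p = 0.0674) and UBA2 (-0.28, adjusted p = 0.0600) did not, and without its replicate 3 UBA2 did not (-0.20, adjusted p = 0.114). The log2 differences stayed negative in all 24 alternative analyses of each gene, between -0.72 and -0.48 for MMS21, -0.33 and -0.15 for AOS1 and -0.35 and -0.15 for UBA2. The end nearest 0 for AOS1 and UBA2 came with libraries scaled to an equal sum of FPKM over genes other than those of ribosomal proteins (equal-sum scaling), where neither passed (AOS1 -0.15, adjusted p = 0.258, and UBA2 -0.15, adjusted p = 0.294).

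UBC9, the E2, was at 95.6, 102.4 and 90.1 FPKM in ulp2 null 50G libraries, against 81.7, 86.7 and 86.9 in WT 50G libraries. The groups did not overlap, yet the log2 difference of 0.17 (standard error 0.08) missed the threshold (adjusted p = 0.118, limma). It was positive in all 24 alternatives and passed with the equal-sum scaling (0.29, adjusted p = 0.0048), while the adjusted p ranged up to 0.333. The other 6 genes had log2 differences between -0.0013 (SIZ1) and 0.07 (NFI1). ULP1, the remaining SUMO protease, was at 60.6, 57.3 and 52.1 FPKM in ulp2 null 50G libraries, against 53.9, 57.4 and 58.0 in WT 50G libraries, a log2 difference of 0.0046 with a 95% interval of -0.25 to 0.26 (adjusted p = 0.983, limma). SLX5 had 51.2, 51.7 and 59.1 FPKM in ulp2 null 50G, against 49.4, 53.0 and 51.6 in WT 50G libraries, and its interval was -0.21 to 0.34. SLX8 had 47.6, 63.5 and 60.5 FPKM in ulp2 null 50G, against 43.7, 66.3 and 58.8 in WT 50G libraries, and its interval was -0.39 to 0.46.

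After 500 generations, 1 of the 10 genes still separated the strains by the same test. AOS1 was at 71.9, 80.5 and 82.3 FPKM in ulp2 null 500G libraries, against 98.4, 101.9 and 89.2 in WT 500G libraries, a log2 difference of -0.30 (standard error 0.08, 95% interval -0.48 to -0.12, adjusted p = 0.0429, limma). The groups did not overlap for AOS1 and overlapped for the other 9 genes. Among all tested genes 6.06% were lower and 4.9% higher by the test (11% either way), and 16.1% were lower and 11.2% higher without overlap. The log2 differences of all 10 genes were negative, with a median of -0.10 against -0.03 over all tested genes. These signs rest on the scaling between libraries: with the equal-sum scaling, UBA2 (0.09), UBC9 (0.04), SIZ1 (0.10), NFI1 (0.04) and SLX5 (0.04) turned positive. The AOS1 call was also close to the threshold. It did not pass when 9 of the 12 libraries were left out one by one, with log2 differences between -0.34 and -0.24 and adjusted p-values between 0.054 and 0.137, and it passed only without WT 50G replicate 1, WT 500G replicate 3 or ulp2 null 50G replicate 1. With only these 2 groups in the fit the adjusted p was 0.132, and over all 24 alternatives it ranged from 0.0192 to 0.237, with the log2 difference negative in each.

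For the others at 500 generations, ULP1 was at 62.5, 72.8 and 85.3 FPKM in ulp2 null 500G libraries, against 77.0, 94.9 and 84.6 in WT 500G libraries. Its log2 difference of -0.22 had a 95% interval of -0.47 to 0.03 (adjusted p = 0.242, limma). MMS21, lower at 50 generations, was at 24.9, 29.6 and 34.0 FPKM in ulp2 null 500G, against 32.7, 41.5 and 29.5 in WT 500G libraries. The groups overlapped, and the log2 difference of -0.22 had an interval of -0.58 to 0.15 (adjusted p = 0.433, limma). UBC9 was at 111.0, 104.4 and 110.2 FPKM in ulp2 null 500G, against 121.9, 120.2 and 102.2 in WT 500G libraries, a log2 difference of -0.08 with an interval of -0.25 to 0.10 (adjusted p = 0.577, limma). UBA2 was at 38.4, 42.9 and 44.2 FPKM in ulp2 null 500G, against 40.0, 42.2 and 45.4 in WT 500G libraries, with an interval of -0.21 to 0.16.

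**Figure D3:**
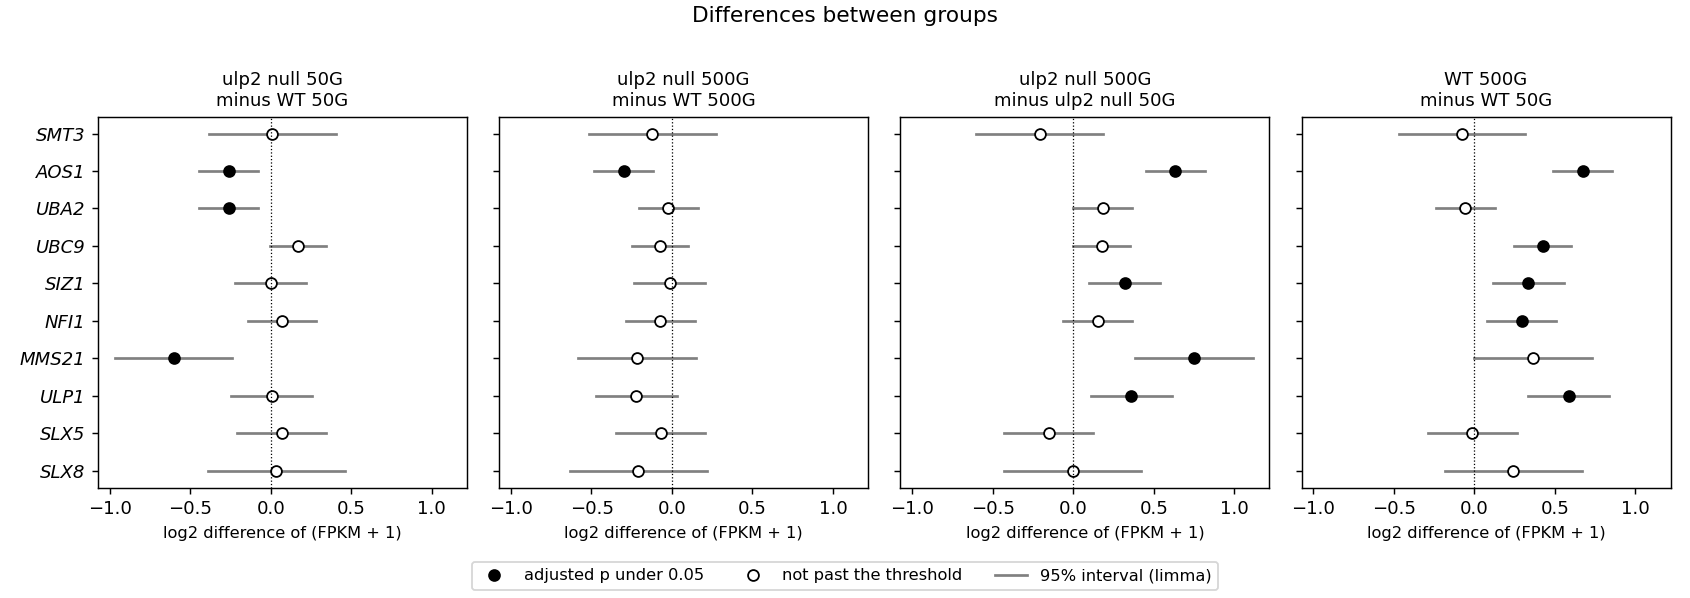
Log2 difference of (FPKM + 1) between 2 groups (horizontal axes) for each of the 10 genes, first-named group minus second. Points are limma estimates, grey lines their 95% intervals, and filled points passed an adjusted p of 0.05. Filled points lie left of 0 in both strain comparisons on the left and right of 0 in both passage comparisons on the right. Of the filled points on the right, those of SIZ1, ULP1, NFI1, UBC9 and MMS21 lost their call with the equal-sum scaling, and those of AOS1 kept it.

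With passaging, the calls among the 10 genes were upward in both strains in the values as deposited, and some of these directions turned with the equal-sum scaling. In ulp2 null cells, 4 of 10 genes were higher at 500G than at 50G and 0 lower, against 24.5% of all tested genes higher and 29.7% lower (54.1% either way). With chromosomes I and XII left out, 3015 of 5958 tested genes were called there, 1564 of them higher. In WT cells, 5 of 10 were higher at 500G than at 50G and 0 lower, against 21.4% higher and 19.2% lower of all tested genes (40.6% either way). The median log2 difference was 0.18 over the 10 genes and -0.05 over all tested genes in ulp2 null cells, and 0.31 and 0.0087 in WT cells. AOS1, SIZ1 and ULP1 were called in both strains, MMS21 in ulp2 null cells alone, and UBC9 and NFI1 in WT cells alone. Such a difference in calls is not a difference between the strains, which is tested further below. The groups did not overlap for 5 genes in ulp2 null cells (26.8% of all tested genes were higher and 33.6% lower without overlap) and for 6 in WT cells (27.1% higher and 24.7% lower). The equal-sum scaling moves the median log2 difference of all tested genes to -0.41 in ulp2 null and -0.34 in WT cells (library sums were higher at 500G, as given above). With that scaling 1 of the 10 genes was higher and 3 lower in ulp2 null cells, and 1 higher and 1 lower in WT cells. The 5 comparisons are drawn from the same 12 libraries and share groups. Median-of-ratios scaling moved these medians to no further than -0.02 from 0.

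AOS1 changed with passaging in both strains under every alternative. It was at 71.9, 80.5 and 82.3 FPKM in ulp2 null 500G libraries, against 47.7, 50.4 and 51.9 in ulp2 null 50G libraries, a log2 difference of 0.64 (standard error 0.08, adjusted p = 9.14e-05, limma). In WT it was at 98.4, 101.9 and 89.2 FPKM in 500G libraries, against 54.8, 61.7 and 64.1 in 50G libraries, a log2 difference of 0.67 (standard error 0.08, adjusted p = 0.000127, limma). No 500G library of either strain overlapped a 50G library. AOS1 passed the threshold in the same direction in all 24 alternatives of each strain, with log2 differences from 0.26 to 0.69 in ulp2 null and 0.30 to 0.73 in WT cells, the lowest with the equal-sum scaling. Its partner UBA2 was at 38.4, 42.9 and 44.2 FPKM in ulp2 null 500G, against 39.1, 37.4 and 33.7 in ulp2 null 50G libraries, a log2 difference of 0.18 with an interval of -0.00081 to 0.37 (adjusted p = 0.0852, limma). It passed without ulp2 null 500G replicate 1 (0.24, adjusted p = 0.0372) and with median-of-ratios scaling (0.21, adjusted p = 0.0283), and was -0.19 with the equal-sum scaling (adjusted p = 0.12), in a range of adjusted p from 0.0148 to 0.274. In WT cells UBA2 was at 40.0, 42.2 and 45.4 FPKM in 500G, against 41.4, 46.8 and 44.6 in 50G libraries, a log2 difference of -0.06 with an interval of -0.24 to 0.13 (adjusted p = 0.619, limma). With the equal-sum scaling it was lower in WT 500G cells (-0.42, adjusted p = 0.00424).

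ULP1 was at 62.5, 72.8 and 85.3 FPKM in ulp2 null 500G libraries, against 60.6, 57.3 and 52.1 in ulp2 null 50G libraries, a log2 difference of 0.36 (standard error 0.11, adjusted p = 0.0206, limma) that became -0.01 with the equal-sum scaling. In WT it was at 77.0, 94.9 and 84.6 FPKM in 500G libraries, against 53.9, 57.4 and 58.0 in 50G libraries, a log2 difference of 0.59 (standard error 0.11, adjusted p = 0.00216, limma), and 0.22 with the equal-sum scaling (adjusted p = 0.152). In ulp2 null cells the call was lost without ulp2 null 50G replicate 3 (0.30, adjusted p = 0.0764) or ulp2 null 500G replicate 3 (0.25, adjusted p = 0.0803). In WT cells it held without any 1 library.

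MMS21 was at 24.9, 29.6 and 34.0 FPKM in ulp2 null 500G libraries, against 14.2, 18.5 and 18.7 in ulp2 null 50G libraries. The groups were separate, and the log2 difference of 0.75 (standard error 0.17, 95% interval 0.38 to 1.11, adjusted p = 0.00307, limma) was the furthest from 0 of any of the 10 genes in any comparison. It stayed positive in 24 of 24 alternatives and missed the threshold in 1, the equal-sum scaling (0.39, adjusted p = 0.0628), in a range of adjusted p from 0.000509 to 0.0628. In WT cells MMS21 was at 32.7, 41.5 and 29.5 FPKM in 500G, against 22.2, 28.6 and 28.9 in 50G libraries, a log2 difference of 0.36 with an interval of -0.0030 to 0.73 (adjusted p = 0.103, limma). It was 0.00045 with the equal-sum scaling. The ulp2 null 50G group is shared by this comparison and the one in which MMS21 was lower than WT 50G cells, so the values of that group enter both.

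UBC9 was at 111.0, 104.4 and 110.2 FPKM in ulp2 null 500G, against 95.6, 102.4 and 90.1 in ulp2 null 50G libraries, without overlap. The log2 difference of 0.18 (standard error 0.08) missed the threshold (adjusted p = 0.0819, limma), passed without WT 500G replicate 3 (adjusted p = 0.0399) and with median-of-ratios scaling (0.21, adjusted p = 0.0487), and turned to -0.20 past the threshold with the equal-sum scaling (adjusted p = 0.0191). In WT cells UBC9 was at 121.9, 120.2 and 102.2 FPKM in 500G libraries, against 81.7, 86.7 and 86.9 in 50G libraries, a log2 difference of 0.42 (standard error 0.08, adjusted p = 0.00174, limma) that was 0.05 with the equal-sum scaling (adjusted p = 0.509). The WT call held without any 1 library.

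Of the Siz ligase genes, SIZ1 was at 23.4, 30.9 and 31.1 FPKM in ulp2 null 500G libraries, against 22.2, 22.7 and 22.3 in ulp2 null 50G libraries. In WT it was at 26.6, 28.8 and 30.3 FPKM in 500G libraries, against 22.7, 22.0 and 22.6 in 50G libraries. The 6 libraries at 50G lay within 1 FPKM of each other, below all 6 at 500G. The log2 differences were 0.32 in ulp2 null cells (standard error 0.10, adjusted p = 0.0189, limma) and 0.33 in WT cells (standard error 0.10, adjusted p = 0.0212, limma), and with the equal-sum scaling they turned to -0.04 and -0.03. In ulp2 null cells the call was lost without ulp2 null 500G replicate 2 (0.26, adjusted p = 0.0728) or 3 (0.25, adjusted p = 0.0750). In WT cells it was lost without WT 50G replicate 2 (0.32, adjusted p = 0.0626) or 3 (0.34, adjusted p = 0.0524) and without WT 500G replicate 2 (0.33, adjusted p = 0.0574) or 3 (0.29, adjusted p = 0.0673).

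NFI1 was at 15.3, 17.6 and 17.9 FPKM in ulp2 null 500G, against 14.4, 15.4 and 15.6 in ulp2 null 50G libraries, which overlapped, a log2 difference of 0.15 (adjusted p = 0.208, limma) that was -0.20 with the equal-sum scaling (adjusted p = 0.131). In WT it was at 17.9, 17.9 and 17.7 FPKM in 500G libraries, against 12.4, 15.6 and 15.3 in 50G libraries, a log2 difference of 0.29 (standard error 0.10, adjusted p = 0.0322, limma) that was -0.06 with the equal-sum scaling. The WT call was lost without WT 50G replicate 1 (0.19, adjusted p = 0.114), which was the lowest library of NFI1, and without WT 500G replicate 1 (0.29, adjusted p = 0.0671), 2 (0.29, adjusted p = 0.0757) or 3 (0.30, adjusted p = 0.0640).

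The SUMO-targeted ubiquitin ligase genes did not pass the test with passaging in either strain. SLX5 was at 41.9, 49.1 and 55.0 FPKM in ulp2 null 500G libraries, 44.1, 48.8 and 60.9 in WT 500G libraries, 51.2, 51.7 and 59.1 in ulp2 null 50G, against 49.4, 53.0 and 51.6 in WT 50G libraries. All groups overlapped, and the log2 differences were -0.15 in ulp2 null cells (interval -0.43 to 0.13) and -0.01 in WT cells (interval -0.29 to 0.26). SLX8 was at 44.5, 66.5 and 61.5 FPKM in ulp2 null 500G, against 55.3, 72.9 and 70.5 in WT 500G libraries, and its log2 differences to 50G were -0.0016 in ulp2 null cells (interval -0.43 to 0.42) and 0.24 in WT cells (interval -0.18 to 0.67). In WT cells SLX8 was -0.13 with the equal-sum scaling. SMT3 had log2 differences of -0.21 in ulp2 null cells (interval -0.60 to 0.18) and -0.08 in WT cells (interval -0.47 to 0.31). With the equal-sum scaling, SMT3 (-0.59, adjusted p = 0.0207) and SLX5 (-0.52, adjusted p = 0.0144) were past the threshold and lower in ulp2 null 500G than ulp2 null 50G cells, in ranges of adjusted p up to 0.806 and 0.758.

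Whether passaging acted differently with and without Ulp2 was tested as an interaction, the difference ulp2 null 500G minus ulp2 null 50G less the difference WT 500G minus WT 50G. It passed the threshold for 0 of the 10 genes in limma, and 0 had an unadjusted p under 0.05, while 22.7% of all tested genes passed, 9.74% with a positive and 13% with a negative interaction. With chromosomes I and XII left out, 1003 of 5958 tested genes passed, 573 of them with a positive interaction. UBC9 came closest, with an interaction of -0.25 (95% interval -0.49 to 0.00028, unadjusted p = 0.0502, adjusted p = 0.147, limma), and without WT 500G replicate 3 it was -0.33 (adjusted p = 0.0368). The interval of SLX8 (-0.24, from -0.85 to 0.36) leaves room for a sizeable difference in either direction. That of MMS21 (0.39, from -0.13 to 0.90) leaves room for a sizeable positive one and a small negative one.

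The late ulp2 null cells were also set against WT 50G cells, the reference used in the study. Here 4 of the 10 genes were higher and 0 lower, against 16.1% of all tested genes higher and 17.8% lower (33.9% either way). AOS1 had a log2 difference of 0.37 (standard error 0.08, adjusted p = 0.00598, limma), UBC9 of 0.35 (standard error 0.08, adjusted p = 0.00689), ULP1 of 0.37 (standard error 0.11, adjusted p = 0.0303) and SIZ1 of 0.32 (standard error 0.10, adjusted p = 0.0301). For each of them every ulp2 null 500G library lay above every WT 50G library, as for 21.8% of all tested genes, while 25.9% were lower without overlap. Same-numbered libraries deviated together in this pair of groups (correlations 0.115 to 0.141), a pairing read from these data and not given by the labels. With a block for the replicate number NFI1 passed too (log2 difference 0.22, adjusted p = 0.0435 with the block and 0.102 without, range over alternatives 0.0227 to 0.891). That block was fitted over all 12 libraries. It thus also took as pairs the libraries of ulp2 null 500G and ulp2 null 50G, with a mean correlation of -0.03. The added NFI1 call is therefore not a test of the pairing named here. With the equal-sum scaling the log2 differences of AOS1, UBC9, ULP1 and SIZ1 were 0.12, 0.09, 0.11 and 0.07, none past the threshold, NFI1 turned to -0.02, and UBA2 was lower (-0.33, adjusted p = 0.0181). ULP1 and SIZ1 lost their calls without WT 50G replicate 1, 2 or 3 or ulp2 null 500G replicate 2 or 3, with log2 differences from 0.25 to 0.39 and adjusted p-values between 0.0602 and 0.107. AOS1 and UBC9 passed without any 1 library.

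Ratios of 2 genes within a library do not move with the scaling of that library. Partners of the E1, partners of the ubiquitin ligase, and the modifier over its conjugating enzyme and over its protease were compared by exact two-sided permutation tests over the 12 libraries, 8 tests in all, with a smallest possible p of 0.005. The UBA2 to AOS1 ratio was 0.534, 0.533 and 0.537 in ulp2 null 500G libraries, 0.406, 0.414 and 0.509 in WT 500G libraries, 0.821, 0.743 and 0.651 in ulp2 null 50G, against 0.756, 0.758 and 0.695 in WT 50G libraries. Every 500G library lay below every 50G library, a log2 difference of -0.60 (exact permutation p = 0.005, adjusted p = 0.02). The E1 subunit genes thus had a more unequal RNA level after passaging in both strains, with UBA2 further below AOS1. The SMT3 to ULP1 ratio was 7.61, 8.51 and 8.09 in ulp2 null 500G libraries, 6.58, 7.66 and 8.39 in WT 500G libraries, 10.6, 12.2 and 13.4 in ulp2 null 50G, against 10.3, 12.2 and 13.6 in WT 50G libraries. Again all 500G libraries lay below all 50G libraries, a log2 difference of -0.62 (exact permutation p = 0.005, adjusted p = 0.02).

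The SMT3 to UBC9 ratio was 4.28, 5.93 and 6.26 in ulp2 null 500G libraries, 4.16, 6.05 and 6.94 in WT 500G libraries, 6.72, 6.80 and 7.78 in ulp2 null 50G, against 6.79, 8.11 and 9.07 in WT 50G libraries. Passages overlapped in WT cells, and the log2 difference of 500G to 50G was -0.45 (exact permutation p = 0.01, adjusted p = 0.0267). Leaving out WT 50G replicate 2 or 3, WT 500G replicate 1 or any ulp2 null 50G library left it short of the threshold, with log2 differences between -0.47 and -0.34 and adjusted p-values between 0.0533 and 0.08. Replicate 1 had the lowest SMT3 to UBC9 ratio in all 4 groups. The SLX5 to SLX8 ratio averaged 0.858 ± 0.107 in ulp2 null 500G libraries, 0.777 ± 0.0984 in WT 500G libraries, 0.955 ± 0.132 in ulp2 null 50G, against 0.936 ± 0.173 in WT 50G (each the mean and SD, n = 3), and passages did not differ past the threshold (log2 difference -0.21, exact permutation p = 0.1, adjusted p = 0.2). None of the 4 ratios differed between ulp2 null and WT cells past the threshold, with log2 differences from -0.10 to 0.14 and adjusted p-values from 0.256 to 0.57 by the same test.

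**Figure D4:**
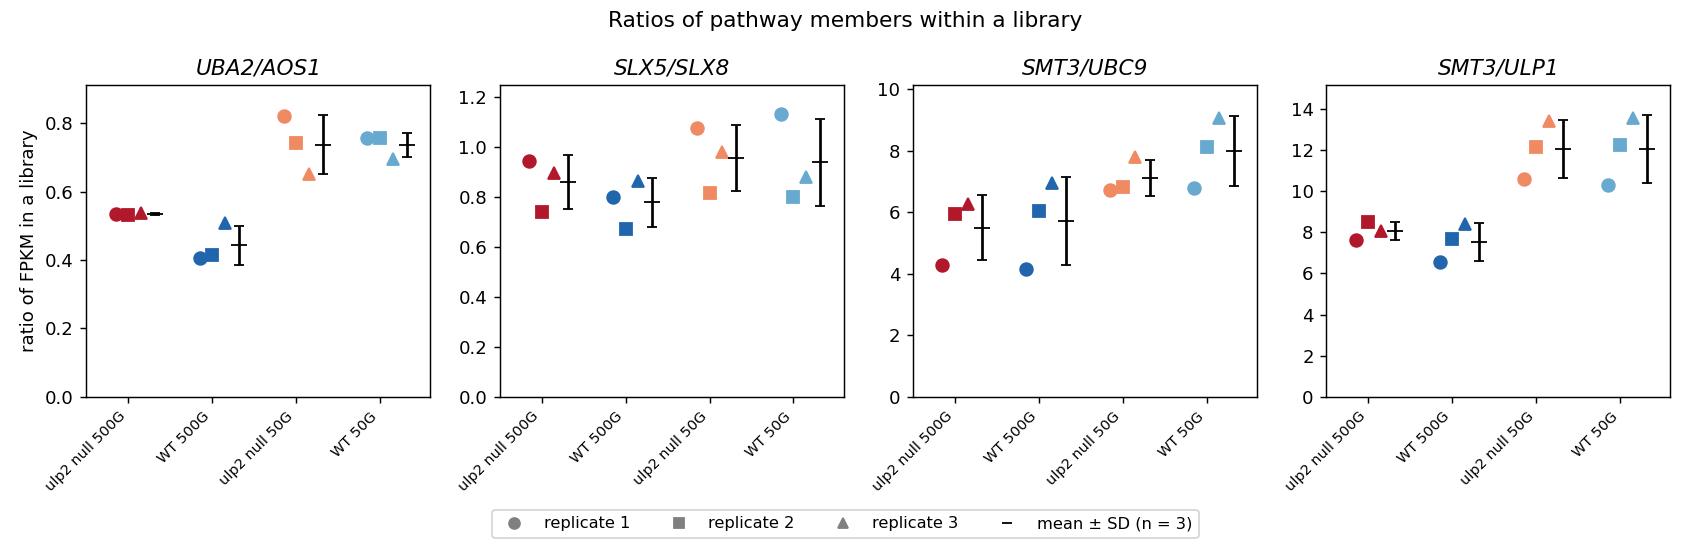
Ratio of the FPKM of 2 genes within each library (vertical axes, from 0), by group. Symbols are replicates, and the bars are the mean and SD of 3 libraries. The UBA2/AOS1 and SMT3/ULP1 ratios of all 500G libraries lie below those of all 50G libraries.

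Across the 12 libraries, the most alike of the 10 genes were SIZ1 and NFI1, at a root mean square difference of 0.12 between log2 values centred on each gene's mean, and the least alike were MMS21 and SLX5 (0.45). Among the 5944 other genes with a mean of at least 10 FPKM, the nearest to SMT3 were BFR2 (0.06), NET1 (0.07), which encodes a nucleolar anchor of Cdc14, and BAS1 (0.08). The nearest to UBA2 were MUK1 (0.05), DOA4 (0.05), which encodes a deubiquitinating enzyme, and TFC4 (0.07), and the nearest to UBC9 were POP4 (0.07), RRP7 and PBN1 (0.08 each). These distances describe 12 libraries, and genes share these libraries and their groups.

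Neighbours of the pathway were read from 7 lists of 61 genes in ulp2 null 50G against WT 50G cells. In the lists, 13 genes were higher and 12 lower, where 18.7% of all tested genes were higher and 18.1% lower. The 10 genes of the lists that lie on chromosomes I and XII were all among the 13, where 80% of the 614 tested genes of these chromosomes were higher and 2.28% lower. Of the 51 on other chromosomes 3 were higher, 12 lower and 36 not called, where 12.4% of the remaining tested genes were higher and 19.8% lower (for the 51, 7 higher and 6 lower with the equal-sum scaling). ULP2 is among the lower genes in each of these counts, and its call was fixed by the strains. Among the 5 other SUMO pathway genes, 1 was higher and 1, ULP2, lower. The higher one was CST9 on chromosome XII, which encodes a SUMO ligase of meiosis, with a mean of 54.2 FPKM in ulp2 null 50G, against 35.9 in WT 50G cells (log2 difference 0.58, adjusted p = 0.00118, limma).
Of the 7 genes for tethers and importers of Ulp1, 2 were higher and 1 lower. KAP95, a karyopherin gene on chromosome XII, had 64.0 FPKM in ulp2 null 50G, against 33.5 in WT 50G cells (log2 difference 0.91, adjusted p = 3.36e-06, limma), and NUP60, a nuclear pore gene on chromosome I, had 54.4 and 34.6 (0.64, adjusted p = 0.0134). NUP60 missed the threshold without WT 50G replicate 1 (0.53, adjusted p = 0.0536) or ulp2 null 50G replicate 3 (0.56, adjusted p = 0.0535). SRP1, the importin alpha gene on chromosome XIV, had 67.8 FPKM in ulp2 null 50G, against 79.4 in WT 50G cells (-0.22, adjusted p = 0.0088), and -0.11 with the equal-sum scaling (adjusted p = 0.343).

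In the Smc5/6 complex that holds Mms21, 2 of the 7 other genes were higher and 0 lower, while MMS21 itself was lower. Both lie on chromosome XII: SMC6 had 28.4 FPKM in ulp2 null 50G, against 15.9 in WT 50G cells (log2 difference 0.79, adjusted p = 4.57e-05, limma), and NSE1 had 85.7 and 53.0 (0.68, adjusted p = 1.9e-05). Of the 4 genes for the Cdc48 segregase, which extracts modified proteins, CDC48 was lower (312.7 FPKM in ulp2 null 50G, against 383.6 in WT 50G cells, log2 difference -0.29, adjusted p = 0.00174) and UFD1 higher (0.39, adjusted p = 0.0224). UFD1 missed the threshold without WT 50G replicate 1 (0.34, adjusted p = 0.0753) or 3 (0.40, adjusted p = 0.0534) or ulp2 null 50G replicate 1 (0.33, adjusted p = 0.0779). Of 18 known SUMO substrates, 4 were higher and 4 lower. YCS4, a condensin gene on chromosome XII, had 22.2 FPKM in ulp2 null 50G, against 13.3 in WT 50G cells (0.69, adjusted p = 0.000216), and CDC14, the phosphatase of mitotic exit, had 33.3 and 56.6 (-0.75, adjusted p = 0.00165). In the Rub1 pathway, which attaches another ubiquitin-like protein, 2 of 7 genes were higher, DCN1 (0.61, adjusted p = 0.000392) and UBC12 (0.57, adjusted p = 0.00154), both on chromosome XII, and 2 were lower, among them RRI1 (-0.50, adjusted p = 0.000863).

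The genes for ubiquitin E1 and E2 enzymes gave a set of like roles to compare. Of 13 genes, 1 was higher and 3 lower in ulp2 null 50G than WT 50G cells. UBC4 on chromosome II had 515.2 FPKM in ulp2 null 50G, against 345.1 in WT 50G cells (log2 difference 0.58, adjusted p = 2.26e-05, limma). UBA1, the ubiquitin E1, had 90.0 and 111.7 FPKM (-0.31, adjusted p = 0.00373, and -0.19, adjusted p = 0.0767, with the equal-sum scaling), and UBC1 had 220.5 and 302.5 (-0.45, adjusted p = 0.000948). With passaging, 9 of the 13 genes were higher and 1 lower in ulp2 null 500G than ulp2 null 50G cells, and 7 were higher and 1 lower in WT 500G than WT 50G cells, where 24.5% of all tested genes were higher and 29.7% lower in ulp2 null and 21.4% higher and 19.2% lower in WT cells. These directions depend on the scaling as well: the equal-sum scaling gave 4 higher and 3 lower in ulp2 null cells, and 2 higher and 3 lower in WT cells. At 500 generations, of the genes named here KRE29 of the Smc5/6 complex (-0.44, adjusted p = 0.0236) and DCN1 (-0.35, adjusted p = 0.0358) were lower, and UBC4 (0.23, adjusted p = 0.0283) and YCS4 (0.38, adjusted p = 0.0308) higher, in ulp2 null 500G than WT 500G cells. Their calls rest on single libraries as well as on the fit: each missed the threshold without at least 1 of the libraries and with only the 2 groups in the fit, with adjusted p-values between 0.0859 and 0.152.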

How the data were processed

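RNA of 12 cultures was analysed, 3 libraries in each of 4 groups. The authors' stranded libraries came from total RNA by the protocol and from polyA RNA by the sample labels. Reads were trimmed and aligned by the authors to Ensembl R64 (TopHat2 2.1.1), uniquely placed reads were retained, and Cuffdiff (Cufflinks 2.2.1) gave the levels. The authors deposited FPKM values, whose scaling between libraries is not given in the sources used here. Depth is unknown. All columns were matched to samples by label (0 unused).

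The 6572 genes whose mean FPKM reached 1 were tested. A pseudocount of 1 was added, log2 was taken, and limma 3.58.1 (R 4.3.3) fitted all 4 groups with a trended empirical Bayes prior. Benjamini-Hochberg adjustment ran over every tested gene, at a threshold of 0.05. Differences are on this log2 scale, which understates changes of low genes. Ratios were tested by exact permutation. The code of the limma fit was tested on simulated data, and that of the permutation test was not. Sequences came from RefSeq R64, and 6048 genes matched by systematic name and 114 by symbol. Figures used python 3.11.15 and matplotlib 3.10.9.

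The members, the lists and the tests were chosen with earlier results of these data known. Named were all 10 members, ULP2, for each list up to 3 genes with the largest change among those called in a strain comparison or the interaction, and for SMT3, UBA2 and UBC9 the 3 genes of most like pattern. The values of URA3 are a check of labels, chosen after they were seen. Ribosomal protein genes, a list kept for the equal-sum scaling, had 131 of 137 genes higher in ulp2 null 50G cells, set against WT 50G. Alternatives were a pseudocount of 0.1, a minimum mean FPKM of 10 or none, fits of only the 2 groups compared, a block for the replicate number (replicate block), median-of-ratios and equal-sum scaling, no trend, chromosomes I and XII left out, an adjusted p under 0.01, and each library left out. Added after seeing the data were replicate 1 left out of every group, median-of-ratios scaling with the block, and the alternatives of the lists. Same-numbered libraries of ulp2 null 500G and WT 50G deviated together across genes (correlations 0.115 to 0.141, all over 0.1), so their replicate numbers were taken as pairs from the data. In no other pair of groups compared was every correlation over 0.1.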

Additional observations from a re-analysis of the deposited data

Results flagged for a closer look

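For 12 genes named from the neighbouring lists, the change with passaging differed between ulp2 null and WT cells in limma's interaction test. The test takes ulp2 null 500G minus ulp2 null 50G, less WT 500G minus WT 50G, at an adjusted p under 0.05. By it 22.7% of all tested genes passed, 9.74% with a positive and 13% with a negative interaction. None of the 10 SUMO pathway genes did. The 12 were named because they passed a test, so their number is not a result about the lists. The interaction was negative for 8 of the 12 named genes. On chromosome XII these were KAP95 (-1.09, adjusted p = 4.1e-05), DCN1 (-0.96, adjusted p = 0.000506), UBC12 (-0.70, adjusted p = 0.00648), NSE1 (-0.55, adjusted p = 0.0018), SMC6 (-0.53, adjusted p = 0.0107) and CST9 (-0.52, adjusted p = 0.0246). NUP60 on chromosome I had -0.86 (adjusted p = 0.0266) and UBC4 on chromosome II -0.35 (adjusted p = 0.0106). The interaction was positive for POL30 (0.93, adjusted p = 0.0283), CDC14 (0.81, adjusted p = 0.0131), RRI1 (0.49, adjusted p = 0.0128) and SRP1 (0.34, adjusted p = 0.0098). The 12 are not all list genes that passed. Positive and negative calls were 0 and 1 of 5 other SUMO pathway genes, and 1 and 2 of 7 Ulp1 tethers and importers. They were 0 and 2 of 7 Smc5/6 genes, 0 and 0 of 4 Cdc48 genes, and 4 and 1 of 18 known SUMO substrates. For the ubiquitin E1 and E2 genes they were 0 and 1 of 13, and for the Rub1 pathway 1 and 2 of 7. Among the known SUMO substrates, TOP2 (0.68, adjusted p = 0.0125) and PDS5 (0.48, adjusted p = 0.0445) were also positive, and NOP58 (-0.59, adjusted p = 0.0152) was negative. Over the tested genes of chromosomes I and XII the median interaction was -0.63 and -0.69, against 0.02 over the other chromosomes. CST9, NUP60 and POL30 each lost the threshold in 5 of the 12 fits that left out 1 library, with adjusted p-values up to 0.0636, 0.0660 and 0.0699. With the equal-sum scaling SRP1 (adjusted p = 0.0554), UBC4 (0.0697) and CST9 (0.0664) missed the threshold, and with replicate 1 left out of every group POL30 (0.129), CDC14 (0.113) and UBC12 (0.0635) did.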

How the results depend on the processing

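Depth is unknown, so counting error could not be set beside the differences, and with 3 libraries a group the calls near the threshold changed with single libraries. Of 1430 values of the 10 genes under alternatives, 1255 kept their direction and side of the threshold, 72 lost and 25 gained the call, and 78 changed sign, 73 of these with no call on either side. The cause was not tested. For ulp2 null 50G against WT 50G, 0 genes were called at an adjusted p under 0.01, and 0 to 3 when 1 library was left out. For ulp2 null 500G against WT 500G, 0 were called with 2 groups in the fit, median-of-ratios or equal-sum scaling, an adjusted p under 0.01 or replicate 1 left out of every group, and 0 to 1 without 1 library. For ulp2 null 500G against ulp2 null 50G, 2 were called with 2 groups in the fit, 2 at an adjusted p under 0.01 and 6 with median-of-ratios scaling or replicate 1 left out of every group (2 to 5 without 1 library). For WT 500G against WT 50G, 2 were called with equal-sum scaling and 3 at an adjusted p under 0.01 (3 to 5 without 1 library). For ulp2 null 500G against WT 50G, 2 were called with 2 groups in the fit, 1 with equal-sum scaling and 2 at an adjusted p under 0.01 (2 to 4 without 1 library). The interaction gained 1 gene, UBA2, with replicate 1 left out of every group, and 0 to 1 without 1 library. The SMT3/UBC9 ratio of 500G to 50G lay between -0.52 and -0.34 when 1 library was left out.

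The replicate number as a block, with or without median-of-ratios scaling, gave 2 calls for ulp2 null 500G against WT 500G (AOS1 and SLX8), 7 for WT 500G against WT 50G (the main 5, MMS21 and SLX8) and 1 for the interaction (SLX8). With the block alone, the adjusted p for WT 500G against WT 50G was 0.0318 for MMS21 and 0.00514 for SLX8, and that of the SLX8 interaction 0.0374. Of the pairs of groups compared, every correlation of same-numbered libraries was over 0.1 only for ulp2 null 500G and WT 50G. All 3 libraries correlated best with their own number there. The same held for WT 500G and ulp2 null 50G (correlations 0.097 to 0.203), which were not compared.

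With replicate 1 left out of every group, log2 differences of opposite sign were SMT3 -0.091, SIZ1 0.014, ULP1 -0.076 and SLX8 -0.0096 for ulp2 null 50G against WT 50G, SIZ1 0.068 for ulp2 null 500G against WT 500G, SLX8 0.045 for ulp2 null 500G against ulp2 null 50G, SLX5 0.059 for WT 500G against WT 50G, and AOS1 0.070 and SIZ1 0.054 for the interaction. With median-of-ratios scaling, with the block or without, they were ULP1 -0.0037 for ulp2 null 50G against WT 50G, UBA2 0.0080 and SIZ1 0.017 for ulp2 null 500G against WT 500G, SLX8 0.028 for ulp2 null 500G against ulp2 null 50G, and AOS1 0.0033 and SIZ1 0.026 for the interaction. With equal-sum scaling they were SIZ1 0.11 for ulp2 null 50G against WT 50G, UBA2 0.090, UBC9 0.039, SIZ1 0.10, NFI1 0.037 and SLX5 0.045 for ulp2 null 500G against WT 500G, UBA2 -0.19, UBC9 -0.20, SIZ1 -0.042, NFI1 -0.20 and ULP1 -0.011 for ulp2 null 500G against ulp2 null 50G, SIZ1 -0.026, NFI1 -0.059 and SLX8 -0.13 for WT 500G against WT 50G, and NFI1 -0.022, MMS21 -0.10 and SLX8 -0.22 for ulp2 null 500G against WT 50G.

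Leaving out 1 library turned the sign of differences near 0. Their ranges were SMT3 -0.13 to 0.12, SIZ1 -0.014 to 0.0075, NFI1 -0.031 to 0.13, ULP1 -0.044 to 0.063 and SLX8 -0.13 to 0.16 for ulp2 null 50G against WT 50G, SMT3 -0.29 to 0.032, UBA2 -0.066 to 0.036, SIZ1 -0.081 to 0.12 and SLX5 -0.17 to 0.059 for ulp2 null 500G against WT 500G, SLX8 -0.13 to 0.17 for ulp2 null 500G against ulp2 null 50G. They were SMT3 -0.22 to 0.090 and SLX5 -0.14 to 0.085 for WT 500G against WT 50G, SLX5 -0.17 to 0.018 and SLX8 -0.14 to 0.20 for ulp2 null 500G against WT 50G, and SMT3 -0.30 to 0.022, AOS1 -0.092 to 0.029 and SIZ1 -0.079 to 0.12 for the interaction.

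In the lists (ulp2 null 50G against WT 50G), leaving out chromosomes I and XII left 1 called other SUMO pathway gene, 1 Ulp1 tether or importer, 0 of the Smc5/6 complex, 5 substrates and 2 of the Rub1 pathway. The Cdc48 list had 1 called gene at an adjusted p under 0.01, 1 with replicate 1 left out of every group, and 1 to 2 without 1 library. Equal-sum scaling left 5 substrates called, and 5 ubiquitin genes for WT 500G against WT 50G.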
